A study of Arabidopsis thaliana with 12 samples.

Results

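The comparison was of dcl1-9 leaves with wild-type (WT) leaves after 6 h in darkness, on 6 of the 12 arrays of the series, 3 dcl1-9 dark and 3 WT dark, chosen by their sample labels. All 27827 probe sets, 1 per gene, entered. The series asked how leaves respond to sudden darkness when microRNA (miRNA) production is impaired, and its other 6 arrays hold the same genotypes kept for 6 h in light. Each group has 3 biological replicates by the labels, and p-values measure the spread between them. The dcl1-9 allele is an insertion in DCL1 that lowers but does not abolish its function. It arose in the ecotype Wassilewskija and was backcrossed 5 times to Columbia (Col-0), the background of the WT plants. Whether a plant was a homozygous mutant had been judged by its looks, and only this one allele was on the arrays. All groups share the treatment of the tissue, since leaves 5 to 7 of plants aged 4 to 5 weeks, grown under 12 h of light, were cut off and floated on water. Darkness began 2 h after the lights came on, and the light groups stayed under the growth light. The arrays measured RNA of whole leaves, so fewer cells of a type and less RNA per cell cannot be told apart.

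Plant miRNAs are cut from folded primary transcripts, the products of MIR genes, by the nuclear RNase III enzyme DCL1 together with its partners HYL1 and SE. They are then loaded into an ARGONAUTE protein, mostly AGO1, and guide the cutting or silencing of messenger RNAs with a matching site. Many of these targets are transcription factors of leaf development, and others serve nutrient use. A dark leaf lives on stored carbon, and the kinase SnRK1 turns on dark-inducible genes when energy runs short.

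The values are linear intensities, which were taken to log2, and every difference below is dcl1-9 dark minus WT dark on the log2 scale, with the median difference over all probe sets taken off. That median stood at -0.12 before it was taken off. A probe set was called when its adjusted p from limma, over all probe sets, was under 0.05. By this rule 2249 probe sets (8.08%) were higher and 536 (1.93%) lower in dcl1-9 dark, with a median size of 0.88 and -0.92. Of these, 786 rose and 217 fell by 1 or more on the log2 scale. The dcl1-9 dark arrays all stood above the WT dark arrays at 3606 probe sets (13.0%) and all below at 5335 (19.2%), and 2133 of the higher and 535 of the lower calls were among these. Here and below, overlap of arrays was judged on the deposited intensities, from which no median was taken off. These counts and the calls are thus on different scales. The share of calls that were higher was 80.8%, and 80.4% with each array centred on its median, but 59.6% when the median was left in, 69.7% after quantile normalization and 67.9% after cyclic loess. It was 68.8% without dim probe sets, and 52.7% by another criterion, a bound on the fold of 1.2 recomputed from the deposited group means without centring or adjustment.

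Single arrays weighed on these counts. Without dcl1-9 dark 1, 472 probe sets were higher and 175 lower, and without WT dark 3, 788 and 199. The counts were 905 and 241 without dcl1-9 dark 2, and 1390 and 337 without WT dark 1, while leaving out WT dark 2 or dcl1-9 dark 3 gave 2101 and 483, or 2180 and 484. Calls that held with each of the 6 arrays left out in turn numbered 452 of the 2249 and 143 of the 536, and single genes below come mainly from these. Median intensities were between 32.0 and 34.5 on the WT dark arrays and between 30.3 and 33.3 on the dcl1-9 dark arrays, and each dark array correlated with the others of its group at a mean r of 0.966 to 0.978 across probe sets, so no dark array stood apart. The number of arrays limits the precision. Differences moved with signal, since the median was -0.12 in the dimmest sixth of probe sets and 0.16 in the brightest, and 0.28% and 15.0% of these sixths were called higher. The part of signal strength in the counts was not tested.

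**Figure D1:**
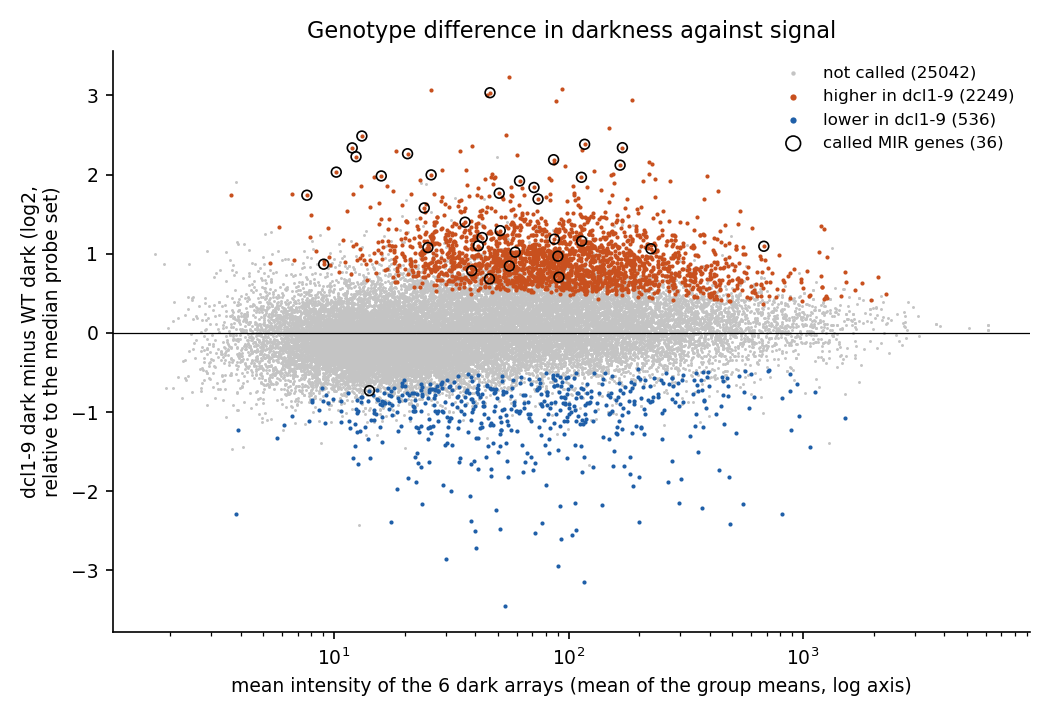
Each point is a probe set, with the mean intensity of the dark arrays on a log axis and the log2 difference of dcl1-9 dark from WT dark, relative to the median probe set, on the other. The 2249 higher calls lie mostly at middle and high intensity, the 536 lower calls are spread more evenly with 28 in the dimmest sixth of probe sets, and circles mark the 36 called MIR genes.

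The RNA of DCL1 (At1g01040) itself was higher in the mutant. Its probe set read 26.6, 21.3 and 23.1 on the WT dark arrays and 67.4, 64.5 and 51.5 on the dcl1-9 dark arrays (log2 1.49, SE 0.18, adjusted p = 0.00045). Every mutant array was above every WT array, and the light arrays differed likewise (log2 1.22). DCL1 mRNA is a target of miR162, and where its probes lie relative to the insertion was not known, so DCL1 is no check on how the arrays were labelled. Of 30 listed genes of small RNA production and action, 12 (40.0%) were higher in dcl1-9 dark and 0 lower, with a median of 0.52, against 0 for all probe sets by construction. Over all probe sets 8.08% were higher, and 11.7% in the sixth that holds the list's median intensity of 54.9. The 12 belonged to several pathways: DCL1, HYL1 and CBP80 act with the primary transcripts of miRNAs, HST in export, DCL4, RDR6 and DRB4 in making trans-acting siRNAs, and DCL3 and AGO4 in the silencing of DNA. The other members called were TGH, HESO1 and RDR1. DCL4 (At5g20320), which cuts long double-stranded RNA into siRNAs, read 75.3, 84.3 and 62.6 in WT dark and 160.5, 174 and 121 in dcl1-9 dark (log2 1.15, SE 0.20, adjusted p = 0.0034). CBP80 (At2g13540), a subunit of the nuclear cap-binding complex, read 42.9, 44.8 and 44.5 and 73.1, 73.0 and 70.2 (log2 0.83, SE 0.14, adjusted p = 0.0035). For both the groups were apart, and with DCL1 they were the 3 members whose call held with each array left out. Without WT dark 1, WT dark 3, dcl1-9 dark 1 or dcl1-9 dark 2 the count of 12 became 6, 7, 3 or 7, and it was 7 without centring and 8 after quantile normalization or cyclic loess. Not all partners of DCL1 passed the test. AGO1 read 174, 163 and 179.8 in WT dark and 211, 191 and 172 in dcl1-9 dark, with overlapping arrays (log2 0.27, adjusted p = 0.23), and SE differed by 0.32 (adjusted p = 0.13).

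MIR transcripts, the uncut precursors, were among the genes that rose. The array has probe sets for 172 MIR genes, of which 35 (20.3%) were called higher and 1 lower, with a median of 0.17. Many are near the floor of the scale, and of the 116 with a mean intensity under 20, 6 were called higher. In the dimmest sixth of all probe sets and the next, with mean intensities up to 19.0, 0.28% and 0.561% were called higher. Of the 35, 26 held with each of the 6 arrays left out, and the count lay between 26 (without dcl1-9 dark 1) and 34. The rise with the largest log2 difference was that of MIR171C (At1g62035), a precursor of the miRNA that targets the GRAS factors HAM1 to HAM3. It read 18.0, 6.10 and 11.2 in WT dark and 85.7, 80.7 and 75.8 in dcl1-9 dark (log2 3.03, SE 0.34, adjusted p = 0.00021), and the closest arrays of the groups were still well apart. MIR166A (At2g46685) and MIR166B (At3g61897), precursors of the miRNA that restricts HD-ZIP III factors to the upper leaf side, read 52.8, 58.1 and 68.6 against 261, 242 and 335 and 4.09, 3.47 and 4.65 against 31.4, 12.8 and 22.5 (log2 2.34 and 2.49, adjusted p = 7.5e-05 and 0.00053). Both were brighter on every mutant array than on any WT array.

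Some precursors of the miRNAs that act on auxin receptors, GAMYB factors and copper proteins rose as well. MIR393A was not called (log2 0.59, adjusted p = 0.14), and neither were the MIR397, MIR408 and MIR857 genes. MIR393B (At3g55734), whose product targets the receptors TIR1 and AFB, read 37.1, 34.4 and 50.9 in WT dark and 173, 213 and 194 in dcl1-9 dark (log2 2.38, SE 0.34, adjusted p = 0.0012). MIR159B (At1g18075) went from 39.1, 30.5 and 30.0 to 155, 153 and 111 (log2 2.19, SE 0.18, adjusted p = 1.4e-05), and MIR159A (At1g73687) from 36.1, 20.6 and 26.6 to 61.4, 65.0 and 47.1 (log2 1.2, SE 0.22, adjusted p = 0.0047). All mutant arrays exceeded all WT arrays for these 3 genes. MIR398B (At5g14545) and MIR398C (At5g14565), whose product targets copper superoxide dismutases, read 5.94, 6.55 and 10.7 against 25.4, 38.3 and 36.7 and 18.6, 33.5 and 22.1 against 96.2, 77.2 and 56.2 (log2 2.26 and 1.76, adjusted p = 0.0017 and 0.0027). MIR161 (At1g48267), whose product targets pentatricopeptide genes, read 11.7, 11.4 and 10.3 and 38.8, 39.0 and 44.6 (log2 2.0, SE 0.20, adjusted p = 0.00011). MIR824A (At4g24415), whose product targets the MADS-box gene AGL16, read 55.2, 37.5 and 56.6 and 212, 163 and 157 (log2 1.97, SE 0.20, adjusted p = 0.00013). For MIR161 and MIR824A the arrays of each genotype lay close together compared with the gap, while those of MIR398C spread about as widely within each genotype as the gap between them. MIR172A (At2g28056), whose product targets AP2-type factors, was bright in both genotypes, at 512, 453 and 415 in WT dark and 880.3, 967 and 853 in dcl1-9 dark (log2 1.09, SE 0.21, adjusted p = 0.0063). In light the same probe set read 65.6, 34.1 and 63.6 in WT and 208, 256 and 208 in dcl1-9, and the 2 genotype differences were not told apart by the test of their difference (log2 -1.12, adjusted p = 0.28).

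The remaining MIR calls differed in size and steadiness. Among families with several members, 3 of 7 were called for MIR166, 2 of 5 for MIR172, 2 of 4 for MIR157 and for MIR167, and 2 of 3 for MIR159, MIR171 and MIR398. Other large families had few or no calls, with 1 of 8 for MIR156, 0 of 14 for MIR169 and 0 of 6 for MIR395 and for MIR399. In MIR396 both were called, but the call of MIR396A was lost whichever of the 6 arrays was left out, while that of MIR396B held with each. Of 103 families 26 had a member called higher. MIR168A (At4g19395), the precursor of the miRNA that targets AGO1 mRNA, read 71.5, 64.2 and 87.3 in WT dark and 156, 123 and 181 in dcl1-9 dark (log2 1.16, SE 0.18, adjusted p = 0.002), while AGO1 mRNA was not called. MIR156C (At4g31877) (23.0, 23.5 and 38.2 against 95.9, 103 and 87.1; log2 1.92) and MIR160C (At5g46845) (29.3, 27.3 and 26.4 against 64.6, 49.6 and 50.1; log2 1.10) are further calls that held with each array left out, and their products target SPL and ARF factors. For MIR158A (At3g10745) and MIR414 (At1g67195) the arrays of the genotypes overlapped, and each call held in 1 of the 6 leave-outs. The single lower call, MIR856A (At1g32992), read 16.6, 18.0 and 20.2 in WT dark and 9.92, 9.94 and 10.4 in dcl1-9 dark (log2 -0.73, SE 0.22, adjusted p = 0.046), and it was lost whichever of the 6 arrays was left out. In light 40 MIR genes were higher and 1 lower (9.95% and 1.52% of all probe sets). Of the 35, 29 were higher there too, on other arrays but in the same fit, with a common variance for each probe set.

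**Figure D2:**
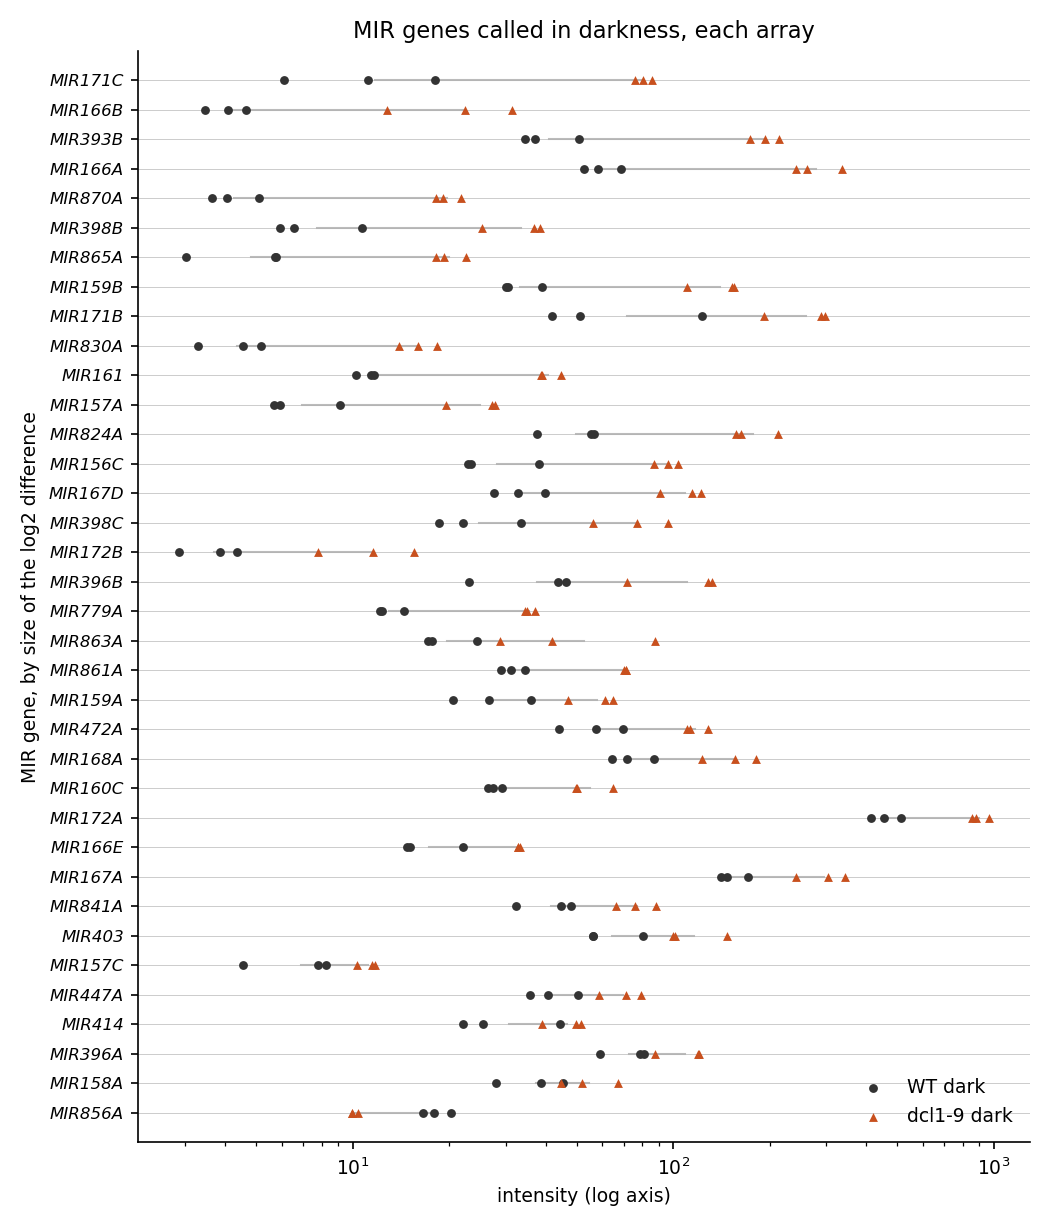
Intensity on each dark array, on a log axis, for the 36 MIR genes called in darkness, with circles for WT dark, triangles for dcl1-9 dark and a line between the group means. The groups were apart for all but MIR158A and MIR414, and MIR856A alone was lower in the mutant.

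The mRNAs that miRNAs and trans-acting siRNAs target rose in some families and not in others. Over 20 target lists with 125 probe sets, 39 (31.2%) were higher, 3 were lower and the median was 0.35. Under the other scalings 24 to 39 were higher, and without WT dark 1, WT dark 3 or dcl1-9 dark 1 the count was 25, 24 or 16. Over all probe sets 8.08% were higher and 1.93% lower, and the highest share called higher in any sixth by intensity was 16.7%. The miR169 targets, subunits A of the CCAAT-binding factor NF-Y, had 5 of 7 members higher, with a median of 0.97. Of the 14 MIR169 genes 0 were called in darkness. NF-YA3 (At1g72830) read 62.5, 69.4 and 65.8 in WT dark and 273, 241 and 217 in dcl1-9 dark (log2 2.0, SE 0.17, adjusted p = 2e-05). NF-YA5 (At1g54160), known for drought tolerance, read 17.4, 16.3 and 15.6 and 80.8, 48.4 and 42.8 (log2 1.87, SE 0.23, adjusted p = 0.00048), and NF-YA2 (At3g05690) 41.5, 41.1 and 37.1 and 103, 139 and 121 (log2 1.71, SE 0.17, adjusted p = 7.5e-05). In each of these the lowest mutant array was far above the highest WT array. NF-YA8 (log2 0.97) also held with each array left out, and NF-YA10 was not called (log2 0.45, adjusted p = 0.22). Of the 7 listed GRF genes, growth factors of leaf cells targeted by miR396, 4 were higher. GRF2 (At4g37740) read 33.7, 39.6 and 35.8 against 120.1, 96.0 and 75.4 (log2 1.52, SE 0.26, adjusted p = 0.0035) and GRF3 (At2g36400) 45.0, 48.2 and 48.5 against 111, 112 and 116 (log2 1.38, SE 0.20, adjusted p = 0.0012). Neither pair of groups overlapped, and without dcl1-9 dark 1 these 2 were the count.

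Among the listed targets of miR398, 3 of 4 were higher, with a median of 1.04. CCS (At1g12520), the chaperone that loads copper into superoxide dismutase, read 129, 78.6 and 98.0 in WT dark and 247, 214 and 309 in dcl1-9 dark (log2 1.47, SE 0.23, adjusted p = 0.0024). CSD1 (At1g08830), the cytosolic enzyme, read 430.4, 307 and 303 and 528, 581 and 736 (log2 0.95, SE 0.17, adjusted p = 0.0048). The plastid enzyme CSD2 (At2g28190) had WT dark 1 near the mutant arrays, at 289.7, 139.8 and 147 against 349, 314 and 436 (log2 1.12, adjusted p = 0.023), and its call was lost without WT dark 2, WT dark 3, dcl1-9 dark 1 or dcl1-9 dark 3 (adjusted p = 0.075, 0.11, 0.096 and 0.07). MIR398B, MIR398C and these targets thus all read higher in the mutant. In other families a single member stood out. Of 6 AP2-type factors targeted by miR172, only TOE2 (At5g60120), a repressor of flowering, was called, at 65.3, 80.9 and 66.3 in WT dark and 267, 225 and 233 in dcl1-9 dark (log2 1.90, SE 0.15, adjusted p = 1.2e-05), while the list median was -0.11, or 0.01 after quantile normalization or cyclic loess. TOE1 (log2 0.39) and AP2 (log2 -0.46) were not called, with overlapping arrays. Of 9 SPL factors, targets of miR156, only SPL6 (At1g69170) was called (98.3, 86.8 and 102 against 171, 177 and 172; log2 0.98, SE 0.17, adjusted p = 0.0039). Among 5 auxin receptors targeted by miR393 only AFB1 (At4g03190) was called, at 109, 66.4 and 105 and 202, 189.5 and 211 (log2 1.26, SE 0.25, adjusted p = 0.0073), while TIR1 differed by 0.40 (adjusted p = 0.098).

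Further target lists held smaller numbers of calls. ARF16 (At4g30080), an auxin response factor targeted by miR160, read 49.2, 35.5 and 40.7 in WT dark and 79.3, 95.8 and 76.3 in dcl1-9 dark (log2 1.13, SE 0.18, adjusted p = 0.0021), and HAM2 (At3g60630), targeted by miR171, 189.7, 212 and 202 and 479.5, 331 and 335 (log2 1.03, SE 0.16, adjusted p = 0.0021). Both sets of mutant arrays lay above the WT arrays. Of 15 pentatricopeptide genes targeted by miR161 and miR400, 4 were higher, or 2 without dcl1-9 dark 1. Of all 262 pentatricopeptide genes 12 (4.58%) were higher, against 8.08% over all probe sets. In the sixth of probe sets that holds the median intensity of these 262, 23.0, the share was 4.2%. The 12 became 6, 3 and 6 without WT dark 3, dcl1-9 dark 1 and dcl1-9 dark 2, and 6 without centring. At1g63150 read 23.0, 15.9 and 22.6 and 88.5, 69.3 and 62.2 (log2 1.97, SE 0.20, adjusted p = 0.00012), and At1g63330 differed by 1.37 (adjusted p = 0.0033). These genes are close copies of one another, so shared signal between them cannot be told apart. Of 5 TCP factors targeted by miR319, which act in leaf shape and ageing, TCP2, TCP4 and 1 more were higher (median 0.56). TCP2 (At4g18390) read 169, 183 and 156 and 256, 278 and 226 (log2 0.70, SE 0.14, adjusted p = 0.0091), and without dcl1-9 dark 1 its adjusted p was 0.063. The count of the list was 1 without WT dark 1 and 0 without dcl1-9 dark 1, and 2 without centring and 1 after quantile normalization or cyclic loess. In light the count was 0 as well. Of 7 GAMYB-like genes targeted by miR159, 2 were higher, with a median of -0.26, and 0 calls held with each array left out. Their count was 0 without centring or after quantile normalization or cyclic loess. Of 8 laccase and plantacyanin genes targeted by miR397, miR408 or miR857, 2 were higher and 1 lower, with a median of -0.15, and 0 were higher without centring. The lists of NAC factors (6 genes), HD-ZIP III factors (5) and SABATH methyltransferases (5) had 0 calls in darkness, with 1 SABATH gene higher after quantile normalization or cyclic loess. Of the 3 lower calls, only LAC2 (At2g29130), a laccase targeted by miR397, held with each array left out, at 43.8, 42.8 and 43.7 in WT dark and 20.5, 16.6 and 18.6 in dcl1-9 dark (log2 -1.11, SE 0.20, adjusted p = 0.0041). TAS3 (At3g17185), a source of trans-acting siRNAs, read 47.0, 57.8 and 70.7 and 25.5, 22.4 and 38.3 (log2 -0.92, SE 0.25, adjusted p = 0.034), and its call was lost without WT dark 2, WT dark 3, dcl1-9 dark 1 or dcl1-9 dark 2 (adjusted p = 0.07, 0.14, 0.13 and 0.14). The third was NLA (At1g02860), a ubiquitin ligase of phosphate and nitrate use (log2 -0.75, adjusted p = 0.02), which was lost without WT dark 1, dcl1-9 dark 1 or dcl1-9 dark 2 (adjusted p = 0.067, 0.076 and 0.085).

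**Figure D3:**
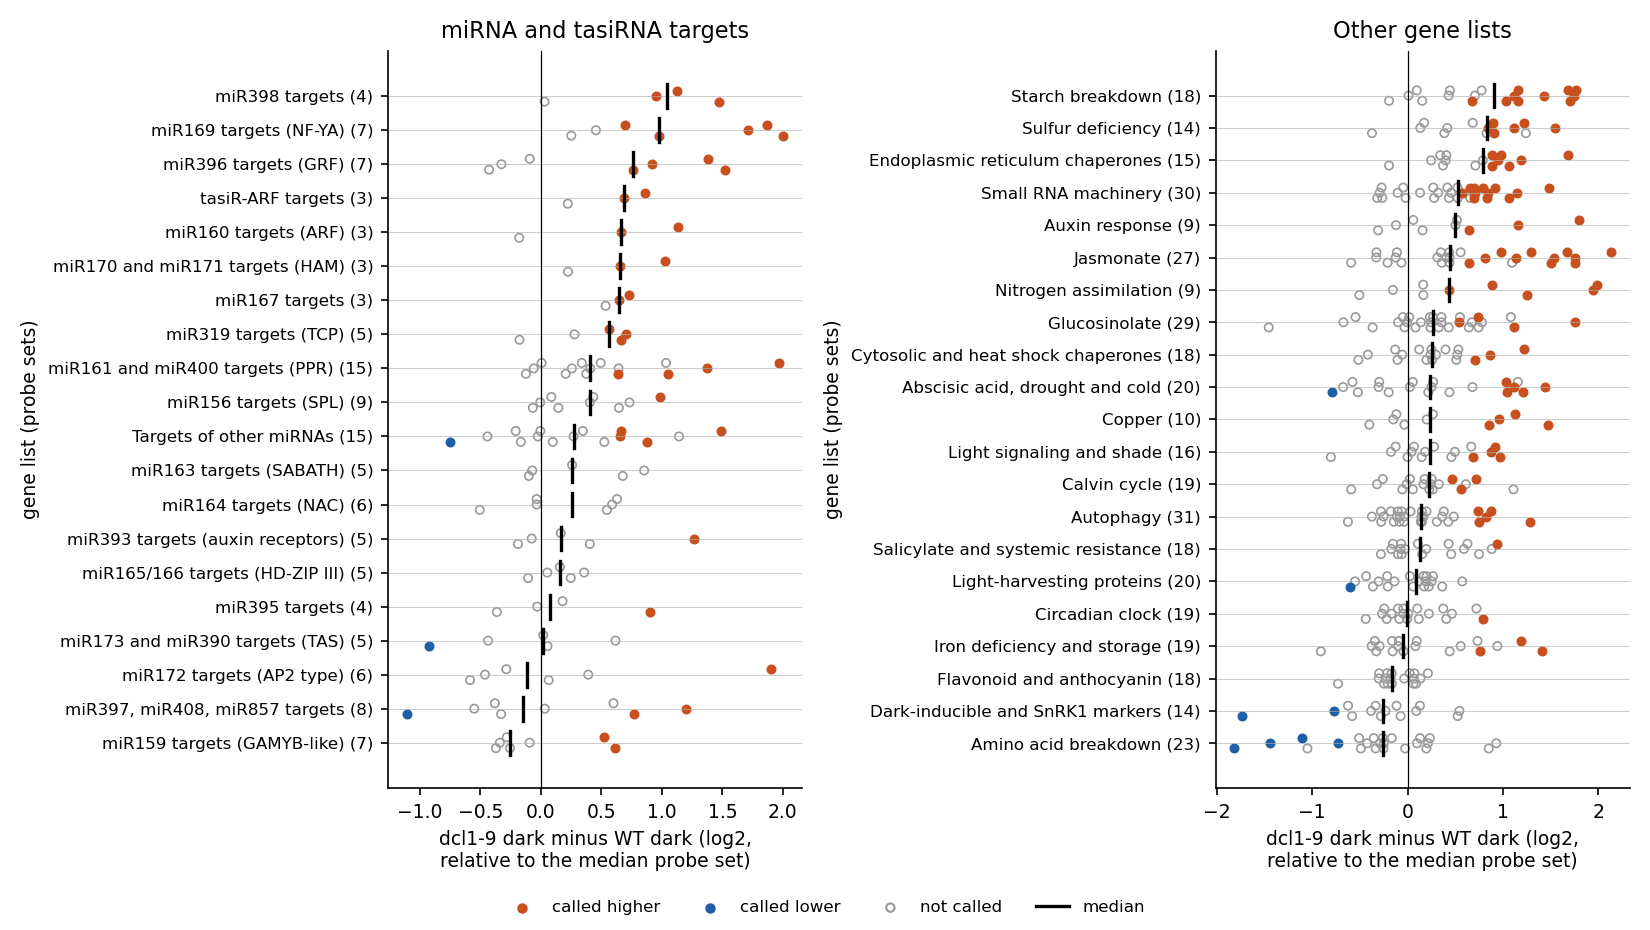
Log2 difference of dcl1-9 dark from WT dark, relative to the median probe set, for each member of the target lists and of other lists, with the list size in brackets, filled points for called members and a bar at the list median. The NF-YA, GRF and miR398 targets and the starch list lie mostly to the right of 0, and the dark-inducible and amino acid breakdown lists have their calls to the left.

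Over all probe sets, the 15 rises with the largest log2 differences, among calls whose arrays did not overlap, ran from 2.31 to 3.23 and included 5 MIR genes. The largest was At4g19430, a gene of unknown function, at 16.6, 10.9 and 8.21 in WT dark and 109.6, 75.1 and 115 in dcl1-9 dark (log2 3.23, SE 0.36, adjusted p = 0.00021). MYB31 (At1g74650), a MYB transcription factor, read 20.0, 18.1 and 26 and 183, 180.0 and 134 (log2 3.08, SE 0.24, adjusted p = 1.2e-05). AGL42 (At5g62165), a MADS-box factor that promotes flowering, read 4.27, 5.68 and 8.18 and 38.3, 58.9 and 40.2 (log2 3.07, SE 0.28, adjusted p = 4.3e-05). In all 3 the light arrays showed a like gap between genotypes, with log2 differences of 2.34, 2.89 and 3.07 there. JRG21 (At3g55970), an oxygenase that hydroxylates jasmonate, rose from 40.3, 60.6 and 37.4 to 281, 204 and 269 (log2 2.59, SE 0.21, adjusted p = 1.4e-05). NIT2 (At3g44300), a nitrilase, read 10.2, 17.0 and 28.6 and 96.0, 104 and 69.1 (log2 2.49, SE 0.36, adjusted p = 0.0013), while on the light arrays it was at 3.60, 3.51 and 6.93 in WT and 9.14, 8.70 and 13.8 in dcl1-9. IQD33 (log2 3.01), a calmodulin-binding family member, and At1g65920 (log2 2.36), annotated with RCC1 repeats and a FYVE zinc finger, also held with each array left out. The receptor kinases At1g35710 and CRK6 (At4g23140) differed widely within groups, at 20.0, 118 and 22.9 against 233, 594 and 137 and 5.75, 47.7 and 22.6 against 82.2, 278 and 92.3. WT dark 2 and dcl1-9 dark 2 were the highest of their groups for both. Without WT dark 1, WT dark 3, dcl1-9 dark 1 or dcl1-9 dark 2 neither was called (adjusted p = 0.07, 0.079, 0.065 and 0.072 for At1g35710, and 0.086, 0.06, 0.057 and 0.091 for CRK6).

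**Figure D4:**
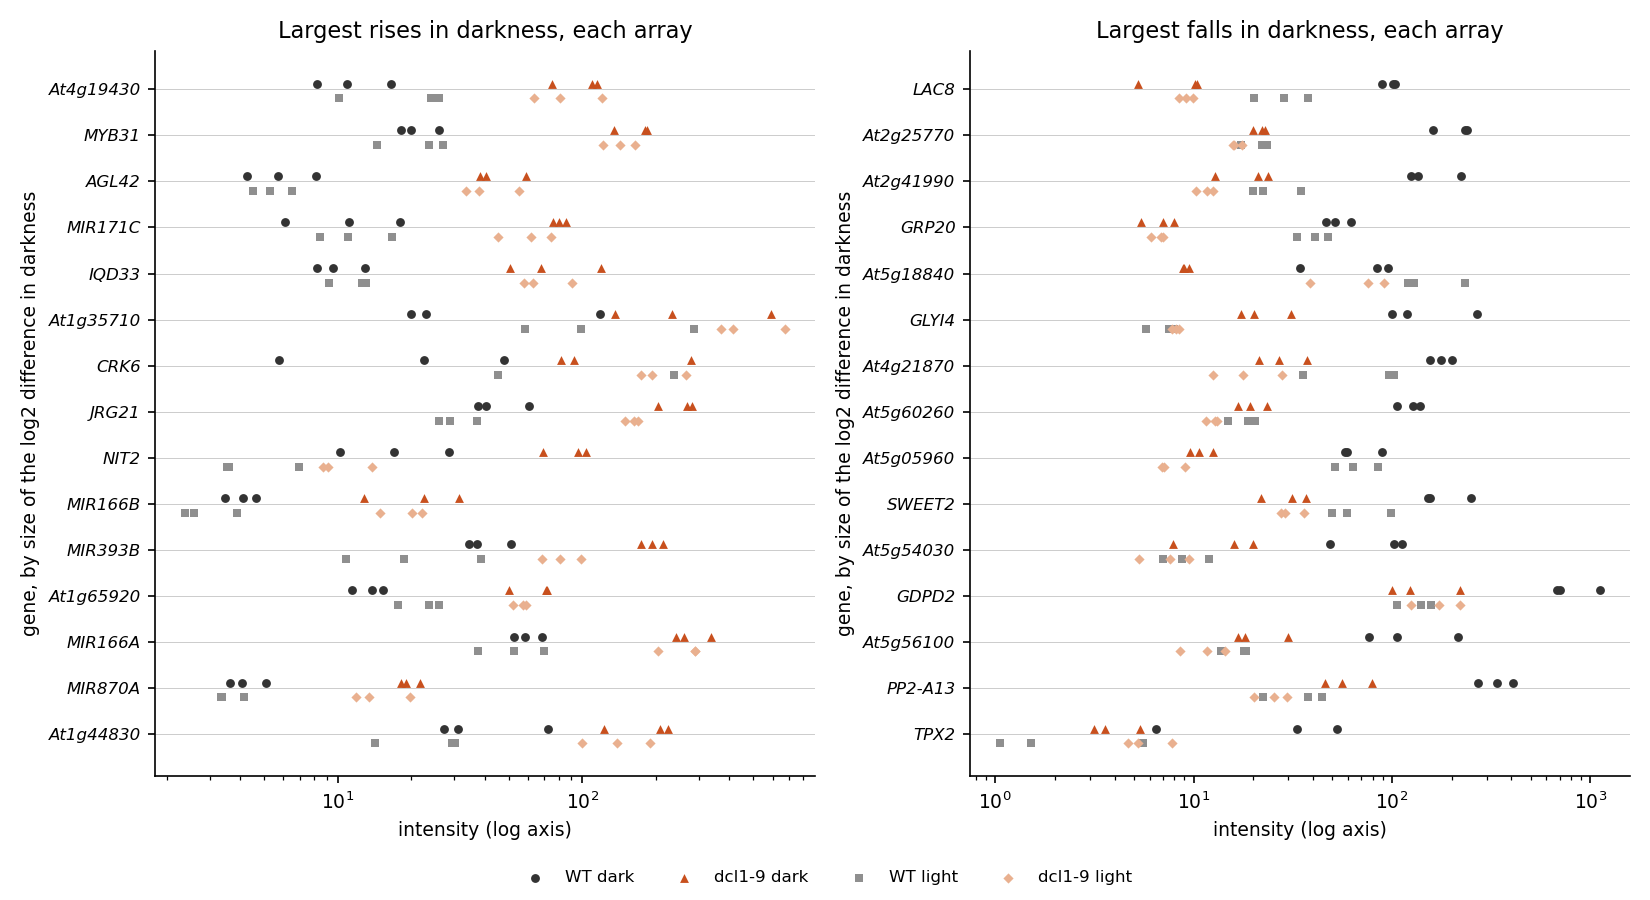
Intensity on each of the 12 arrays, on a log axis, for the 15 largest rises and 15 largest falls in darkness among calls whose dark arrays did not overlap. Circles and triangles are WT dark and dcl1-9 dark, squares and diamonds WT light and dcl1-9 light, and most of the falls show WT dark to the right of the other 3 groups.

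For the falls the WT dark arrays mostly stood above those of the other 3 groups. The largest fall was that of LAC8 (At5g01040), a laccase, which read 89.3, 104 and 101 in WT dark and 10.2, 5.25 and 10.4 in dcl1-9 dark (log2 -3.45, SE 0.27, adjusted p = 1.4e-05). It read 37.7, 28.7 and 20.2 in WT light and 9.21, 8.49 and 9.89 in dcl1-9 light. At2g25770, annotated as a lipid transport protein of the polyketide cyclase type, read 233, 161 and 240.1 in WT dark and 19.9, 22.2 and 22.8 in dcl1-9 dark (log2 -3.14, SE 0.19, adjusted p = 2.8e-06). The light arrays were at 23.6, 17.4 and 22.1 in WT and 16, 17.6 and 15.8 in dcl1-9, so that the dcl1-9 dark arrays lay within the range of WT light. GDPD2 (At5g41080), a glycerophosphodiester phosphodiesterase of lipid turnover, read 701, 678 and 1116 and 123, 99.9 and 221 in darkness (log2 -2.41, SE 0.29, adjusted p = 0.00039) and 140.4, 106 and 157 and 125, 173 and 219.9 in light. SWEET2 (At3g14770), a vacuolar sugar transporter, read 151, 155 and 250.3 and 21.8, 31.5 and 36.8 (log2 -2.50, SE 0.28, adjusted p = 0.00021), and PP2-A13 (At3g61060), a phloem lectin family member, 339.9, 271 and 408 and 55.7, 45.9 and 79.0 (log2 -2.39, SE 0.27, adjusted p = 0.00021). Every WT dark array exceeded every dcl1-9 dark array for each of these. GRP20 (At5g07560), a glycine-rich protein, differed in both treatments, at 51.4, 62.5 and 46.4 against 6.99, 8.01 and 5.41 in darkness (log2 -2.86, SE 0.21, adjusted p = 1.2e-05) and 41.1, 33.2 and 47.6 against 7.02, 6.82 and 6.12 in light. The last of the 15, TPX2 (At1g65970), thioredoxin-dependent peroxidase 2, rested on WT dark 1 and 3, at 33.2, 6.44 and 53.0 against 3.15, 3.59 and 5.39 (log2 -2.39, adjusted p = 0.038), and its call was kept only without WT dark 2. PI (At5g20240), a floral organ identity factor, read 81.6, 32.4 and 84.6 in WT dark and 9.56, 9.53 and 13.6 in dcl1-9 dark (log2 -2.38, SE 0.34, adjusted p = 0.0013), and it was the 1 lower call among 34 listed markers of 10 cell types and organs, of which 0 were higher. The other 4 flower markers were not called, with differences from -0.61 (AP1) to 0.33 (AP3). The leaf markers RBCS1A and CA1 were bright in both groups, at means of 2729 and 1390 in WT dark and 3129 and 1738 in dcl1-9 dark.

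Genes that darkness or low energy is known to induce read lower in dcl1-9 in some cases. Of 14 listed dark-inducible and SnRK1 marker genes, 0 were higher and 2 lower (1 lower without WT dark 3, dcl1-9 dark 1 or dcl1-9 dark 2), with a median of -0.26, and their summed intensity was 11250 to 13520 in WT dark and 7381 to 10300 in dcl1-9 dark. Over all probe sets 1.93% were lower, and 2.22% in the brightest sixth, where the list's median intensity of 233.5 lay. BGAL4 (At5g56870), a beta-galactosidase, read 649, 679 and 698 in WT dark and 125, 165 and 313 in dcl1-9 dark (log2 -1.74, SE 0.33, adjusted p = 0.0056), and dcl1-9 dark 3 was the nearest to the WT arrays. DIN3 (At3g06850), a subunit of the branched-chain keto acid dehydrogenase, read 361, 352 and 619.8 and 239, 189 and 272 (log2 -0.77, adjusted p = 0.037), and without WT dark 3, dcl1-9 dark 1 or dcl1-9 dark 2 it was not called (adjusted p = 0.16, 0.1 and 0.16). The much used markers were not called: DIN6 (At3g47340), an asparagine synthetase, read 1806, 1669.5 and 2167 and 1369, 1108 and 1861, with overlapping arrays (log2 -0.28, adjusted p = 0.69), and DIN1 (At4g35770) differed by -0.63 (adjusted p = 0.17). Of 23 genes of amino acid breakdown, 0 were higher and 4 lower, with a median of -0.26, and 1 was lower without WT dark 3, dcl1-9 dark 1 or dcl1-9 dark 2. The median intensity of this list, 184, also lay in the brightest sixth, where 2.22% were lower. ProDH1 (At3g30775), which begins the breakdown of proline, read 1615, 1629 and 1516 in WT dark and 575, 406 and 662 in dcl1-9 dark (log2 -1.44, SE 0.27, adjusted p = 0.006). On the light arrays it was 649.8, 367 and 683 in WT and 397, 370.0 and 754 in dcl1-9. BCAT2 (At1g10070), a branched-chain aminotransferase, read 698, 552 and 1018 and 139, 142 and 353 (log2 -1.82, adjusted p = 0.019), and its call was lost without WT dark 1, WT dark 3, dcl1-9 dark 1 or dcl1-9 dark 2 (adjusted p = 0.05, 0.095, 0.1 and 0.085). In light 8 of these 23 genes were called higher in dcl1-9 and 0 lower. Of 31 autophagy genes 5 (16.1%) were higher and 0 lower, against 8.08% and 1.93% over all probe sets. Among probe sets with mean intensities of 70.7 to 150, where the list's median intensity of 109 lay, 16.7% were higher. The median difference of the list was 0.14, but below 0 after quantile normalization (-0.03) and cyclic loess (-0.05), and after both 3 were higher and 1 lower. The count of rises was 3 without centring, 3 without WT dark 1, 1 without WT dark 3 or dcl1-9 dark 1 and 2 without dcl1-9 dark 2. ATG2 (At3g19190), a lipid transfer protein of the growing autophagosome, read 111, 153 and 96.1 and 274, 304 and 219 (log2 1.28, SE 0.25, adjusted p = 0.0063), while ATG8E differed by -0.63 (adjusted p = 0.4).

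Starch breakdown had 10 of 18 genes (55.6%) higher and 0 lower, with a median of 0.91. Over all probe sets 8.08% were higher, and 15.0% in the brightest sixth, where the list's median intensity of 260 lay. GWD1 (At1g10760), the dikinase that phosphorylates starch and so opens it to attack, read 76.9, 85.3 and 61.9 in WT dark and 249, 269 and 178 in dcl1-9 dark (log2 1.75, SE 0.21, adjusted p = 0.00042). The glucan phosphorylases PHS1 (At3g29320), of plastids, and PHS2 (At3g46970), of the cytosol, read 54.1, 59.3 and 39.6 against 193, 164 and 124 and 54.4, 74.5 and 38.2 against 176, 194 and 121 (log2 1.77 and 1.70, adjusted p = 0.00051 and 0.0016). DPE2 (At2g40840), which uses maltose in the cytosol, read 55.2, 62.2 and 42.6 and 197, 163 and 116 (log2 1.68, SE 0.27, adjusted p = 0.0024). The groups were apart for all 4, and both dark groups stood well below the light arrays, where DPE2 read 738, 870.4 and 436 in WT and 1436, 1034 and 851 in dcl1-9. The calls of 6 members held with each array left out, and the count was 6 without dcl1-9 dark 1, the lowest, and 11 without WT dark 2. In light 8 of the 18 were higher.

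Nitrogen assimilation had 5 of 9 genes (55.6%) higher and 0 lower in darkness (median 0.44), and 3 without WT dark 1, WT dark 3, dcl1-9 dark 1 or dcl1-9 dark 2. Without centring, after quantile normalization or after cyclic loess 3 were higher and 1 lower. The list's median intensity of 334 lay in the brightest sixth, where 15.0% were higher, against 8.08% over all probe sets. NIA2 (At1g37130), the main nitrate reductase of leaves, read 111, 323 and 109.9 in WT dark and 526, 816 and 440.3 in dcl1-9 dark (log2 1.98, SE 0.38, adjusted p = 0.0063). The second replicate was the highest in both groups. GLU1 (At5g04140), the ferredoxin-dependent glutamate synthase, read 125, 109 and 77.2 and 380.4, 422 and 288 (log2 1.94, SE 0.20, adjusted p = 0.00014), and ASN2 (At5g65010), an asparagine synthetase, 27.2, 34.5 and 29.3 and 64.1, 102 and 44.0 (log2 1.25, SE 0.24, adjusted p = 0.0065). In light 1 of the 9 was higher, and NIA2 differed there by 0.32 (adjusted p = 0.66), but the test of the difference between dark and light did not call NIA2 (log2 1.68, adjusted p = 0.51).

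Chaperones of the endoplasmic reticulum, where secreted proteins fold, had 7 of 15 genes higher and 0 lower (median 0.79). SHD (At4g24190), the HSP90 of that compartment, read 215, 220.2 and 135 in WT dark and 651, 641 and 398 in dcl1-9 dark (log2 1.69, SE 0.25, adjusted p = 0.0017), with replicate 3 lowest in both groups. PDIL1-1 (At1g21750), a disulfide isomerase, read 156, 197 and 116 and 335, 373 and 265 (log2 1.19, SE 0.24, adjusted p = 0.0071), and without dcl1-9 dark 1 its adjusted p was 0.051. The count was 3, 2 or 4 without WT dark 3, dcl1-9 dark 1 or dcl1-9 dark 2, and 1 of the 15 was higher in light. The 7 were 46.7% of the list. Its median intensity of 284 lay in the brightest sixth, where 15.0% were higher, against 8.08% over all probe sets. Among 18 chaperones of the cytosol and heat response 3 (16.7%) were higher, or 1 without centring, WT dark 3, dcl1-9 dark 1 or dcl1-9 dark 2, and HSP90.1 (At5g52640) held with each array left out (18.4, 12.6 and 12.8 against 37.1, 32.6 and 24.2, log2 1.22, adjusted p = 0.0042). In the sixth that holds the median intensity of these 18, 26.15, the share higher was 4.2%.

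The list of jasmonate, a hormone of wounding and defence, had 11 of 27 genes (40.7%) higher and 0 lower, with a median of 0.44, and its count was 7, 6, 6 or 7 without WT dark 1, WT dark 3, dcl1-9 dark 1 or dcl1-9 dark 2. Over all probe sets 8.08% were higher, and 16.7% in the sixth that holds the list's median intensity of 92.5. The allene oxide cyclases AOC2 (At3g25770) and AOC3 (At3g25780), which make the first ring compound of the pathway, read 4.60, 7.89 and 5.45 against 15.8, 18.6 and 20.2 and 12.5, 15.0 and 11.7 against 41.6, 42.9 and 36.8 (log2 1.76 and 1.76, adjusted p = 0.00089 and 0.0014). Neither pair of groups overlapped, though these near copies may share signal. LOX2 (At3g45140), the lipoxygenase at the start of the pathway, read 49.0, 197 and 51.8 in WT dark and 266, 578 and 212 in dcl1-9 dark (log2 2.13, SE 0.44, adjusted p = 0.0091), with replicate 2 the highest of both groups, and without WT dark 3 its adjusted p was 0.053. On the light arrays LOX2 was at 1350.2, 1699 and 1129 in WT and 3296, 3322 and 2882 in dcl1-9. In light 12 of the 27 were higher.

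Auxin and light signaling genes were called in smaller numbers. Of 9 auxin response genes 3 (33.3%) were higher and 0 lower (median 0.50). Over all probe sets 8.08% were higher, and 11.7% in the sixth that holds the list's median intensity of 54.25. GH3.5 (At4g27260), an enzyme that conjugates auxin to amino acids, read 161, 205 and 259 in WT dark and 718, 698 and 556 in dcl1-9 dark (log2 1.80, SE 0.25, adjusted p = 0.00096), and IAA1 (At4g14560), an early repressor of the response, 34.6, 39.4 and 46.0 and 103, 67.9 and 76.5 (log2 1.16, SE 0.22, adjusted p = 0.0053). For both, all mutant arrays were the higher ones. Of 16 genes of light signaling and shade 4 were higher and 0 lower, but 2, 2, 1 and 2 without WT dark 1, WT dark 3, dcl1-9 dark 1 and dcl1-9 dark 2, and 2 higher and 1 lower after cyclic loess. PIF3 (At1g09530), a factor that acts in the dark and is removed in light, read 79.2, 95.8 and 83.2 and 149.6, 186 and 132 (log2 0.97, SE 0.17, adjusted p = 0.004). PHYA (At1g09570), the far-red photoreceptor, read 137, 149.5 and 128 and 254, 217 and 249 (log2 0.92, SE 0.18, adjusted p = 0.0066), and without dcl1-9 dark 1 its adjusted p was 0.054. CHLH (At5g13630), a subunit of the magnesium chelatase of chlorophyll synthesis, read 84.8, 81.2 and 53.7 and 139, 135 and 130.2 (log2 1.03, SE 0.18, adjusted p = 0.0043), and it was 1 of 3 higher calls among 17 genes of that pathway, which numbered 1 without WT dark 1, WT dark 3, dcl1-9 dark 1 or dcl1-9 dark 2 and 5 without WT dark 2. The 3 calls were 17.6% of the list, near the 15.0% in the brightest sixth of probe sets, where its median intensity of 222 lay.

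Genes of nutrient lists were also called higher, as were 8.08% of all probe sets and 16.7% of those with mean intensities of 70.7 to 150. The iron and glucosinolate lists, at 15.8% and 13.8%, had median intensities of 82.6 and 124, and their shares were not above that 16.7%. Of 14 sulfur deficiency genes 6 (42.9%) were higher and 0 lower in darkness, with a median of 0.84, and 3, 2 or 3 without WT dark 3, dcl1-9 dark 1 or dcl1-9 dark 2. The sulfate transporters SULTR1;2 (At1g78000), of uptake, and SULTR4;2 (At3g12520), of the vacuole, read 17.7, 28.3 and 23.5 against 78.6, 58.8 and 49.3 and 23.5, 32.6 and 23.9 against 65.4, 63.4 and 43.0 (log2 1.55 and 1.22, adjusted p = 0.0032 and 0.0047). In light 13 of the 14 were higher, with a median of 2.29. BTS (At3g18290), a ubiquitin ligase that limits the iron deficiency response, read 152, 190.2 and 120.5 in WT dark and 441, 432 and 267 in dcl1-9 dark (log2 1.41, SE 0.24, adjusted p = 0.0036), and 3 of 19 iron genes were higher, or 1 without dcl1-9 dark 1, with a list median of -0.04 (0.05 after quantile normalization). GTR1 (At3g47960), a glucosinolate transporter, read 24.5, 30.2 and 23.2 and 51.0, 55.8 and 47.6 (log2 1.12, SE 0.16, adjusted p = 0.0014), in a list of 29 glucosinolate genes with 4 higher and 0 lower (2, 10, 1, 1 and 2 higher without WT dark 1, WT dark 2, WT dark 3, dcl1-9 dark 1 and dcl1-9 dark 2, and 2 higher and 1 lower without centring). In light that list had 1 higher and 10 lower. RD20 (At2g33380), a caleosin induced by drought, read 31.0, 38.9 and 38.8 and 84.1, 86.9 and 99.8 (log2 1.44, SE 0.20, adjusted p = 0.00086), and of 20 genes of abscisic acid, drought and cold 5 were higher and 1 lower, or 3, 1 and 2 higher without WT dark 3, dcl1-9 dark 1 and dcl1-9 dark 2.

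Resistance genes with nucleotide-binding and leucine-rich repeat domains, the intracellular immune receptors, are partly held down by miRNAs and the siRNAs they trigger. Of 44 with a coiled coil 14 (31.8%) were higher and 1 lower, and of 101 with a TIR domain 19 (18.8%) and 0, with medians of 0.41 and 0.26. Over all probe sets 8.08% were higher, and 4.2% in the sixth that holds both lists' median intensities, 23.5 and 29.0. The counts of both types rested on few arrays. For the coiled-coil type 9, 4, 3 and 6 were higher without WT dark 1, WT dark 3, dcl1-9 dark 1 and dcl1-9 dark 2, and for the TIR type 11, 2, 0 and 5. At1g61310 read 43.6, 30.1 and 27.3 in WT dark and 94.3, 77.9 and 66.2 in dcl1-9 dark (log2 1.38, SE 0.23, adjusted p = 0.0029), and held with each array left out. At1g58602 was the lower one, at 151, 170.1 and 136 and 42.8, 24.8 and 27.4 (log2 -2.18, SE 0.21, adjusted p = 7.5e-05), and in light at 225, 241 and 178 and 73.9, 101 and 80.6. Near copies are frequent in these families, and signal shared between them cannot be told apart. MIR472A (At1g12294), the precursor of a miRNA that targets coiled-coil members, read 69.6, 44.0 and 57.3 and 128, 113 and 110.2 (log2 1.18, SE 0.19, adjusted p = 0.0028).

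Enzyme families of detoxification had calls in both directions or in one. Of 243 cytochrome P450 genes 10 (4.12%, against 8.08% over all probe sets) were higher and 7 lower. The list was dim, with a median intensity of 17.0, and in the sixth of probe sets that holds this value 0.561% were higher. The balance turned to 7 higher and 11 lower without centring, 8 and 9 after quantile normalization and 7 and 9 after cyclic loess. The counts were 5 and 4 without WT dark 3 and 4 and 2 without dcl1-9 dark 1, with 4 lower also without WT dark 1 or dcl1-9 dark 3. CYP71B22 (At3g26200) rose from 7.0, 10.4 and 3.66 to 23.7, 25.5 and 40.1 (log2 2.29, SE 0.42, adjusted p = 0.005) and CYP81D1 (At5g36220) from 69.5, 141 and 75.3 to 274, 301 and 185 (log2 1.58, SE 0.27, adjusted p = 0.0034), while CYP706A6 (At4g12320) fell from 37.5, 35.5 and 35.4 to 7.63, 9.45 and 15.2 (log2 -1.69, SE 0.21, adjusted p = 0.0005). Each of the 3 held with each array left out. Of 57 glutathione S-transferases 5 (8.77%) were higher and 0 lower, a share near the 8.08% over all probe sets, and 3 were higher without centring, after quantile normalization, after cyclic loess or without any 1 of the arrays other than WT dark 2. In the sixth of probe sets that holds the median intensity of this list, 25.65, the share was 4.2%. The near copies GSTF6 (At1g02930) and GSTF7 (At1g02920), known to rise in defence, read 171, 245 and 185 against 493, 579.7 and 443 and 132, 136 and 179.8 against 247, 305 and 311 (log2 1.47 and 1.08, adjusted p = 0.0071 and 0.0048). Among 587 F-box proteins 9 (1.53%) were higher and 7 lower, which turned to 7 and 10 without centring. The counts were 2 and 2 without dcl1-9 dark 1, 5 and 3 without dcl1-9 dark 2, 6 and 3 without WT dark 3 and 9 and 3 without WT dark 1. KUF1 (At1g31350), an F-box protein named for its response to karrikins, read 346, 265 and 253 in WT dark and 80.1, 132 and 139 in dcl1-9 dark (log2 -1.2, SE 0.23, adjusted p = 0.0063).

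In several further lists few or no genes were called. Among 51 histone genes, 15 of the cell cycle and replication, 18 of flavonoid and anthocyanin synthesis and 14 of senescence and chlorophyll breakdown 0 were called either way, with medians of -0.19, -0.23, -0.17 and 0.23, though 1 histone gene and 1 flavonoid gene were lower without centring or after quantile normalization or cyclic loess. Of 314 ribosomal protein genes 10 (3.18%) were higher and 1 lower (4, 2, 0 and 3 higher without WT dark 1, WT dark 3, dcl1-9 dark 1 and dcl1-9 dark 2). That share was under the 8.08% over all probe sets and the 15.0% in the brightest sixth, where the list's median intensity of 161 lay. The balance of this list turned with the scaling, to 2 higher and 6 lower without centring, 3 and 6 after quantile normalization and 2 and 5 after cyclic loess, and its median went from 0.04 to -0.08, -0.06 and -0.09. Of 19 clock genes 1 was higher and 0 lower, and of 20 light-harvesting genes 0 and 1. The control genes ACT2 (At3g18780) and EIF4 (At3g13920) were not called (log2 -0.15 and 0.22, adjusted p = 0.52 and 0.3). FIL (At2g45190), a factor of the lower leaf side, was the 1 call among 8 genes of leaf polarity and boundaries, at 98.4, 141 and 179 in WT dark and 58.6, 54.2 and 72.4 in dcl1-9 dark (log2 -1.02, SE 0.20, adjusted p = 0.0075). FLC (At5g10140), the flowering repressor, was the 1 among 8 genes of flowering and phase change, at 10.8, 9.00 and 18.1 and 25.8, 23.9 and 21.9 (log2 1.10, SE 0.26, adjusted p = 0.016), but its call was lost without WT dark 1, WT dark 2, dcl1-9 dark 1 or dcl1-9 dark 2 (adjusted p = 0.063, 0.053, 0.095 and 0.054).

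Most higher calls in darkness were also called higher in light, while most lower calls in darkness were not called lower there. The dark and light arrays were not shared, but both differences came from the same fit, with a common variance for each probe set. A probe set with a small variance was thus favoured for a call in both, and the overlap of calls is not independent agreement. Of the 2249 probe sets higher in darkness, 1476 (65.6%) were also called higher in light, which is 53.3% of the 2770 there, and 97.6% had a positive difference. Of the 536 lower in darkness, 107 (20.0%) were also lower in light, or 25.2% of the 424 there, and 83.2% had a negative difference. Calls of opposite direction numbered 3 and 4. The test of the difference between both genotype differences called 29 probe sets (0.104%), 4 (0.0144%) more positive and 25 (0.0898%) more negative in darkness, and at an unadjusted p under 0.05 there were 1598. The 29 became 15, 8 or 18 without WT dark 1, dcl1-9 dark 1 or dcl1-9 dark 2, and 14 or 13 without WT light 1 or dcl1-9 light 3. A p above the threshold in this test does not show that a genotype difference was equal in both treatments. Of the 29, 10 were called in darkness only, 14 in light only and 5 in both, and the dark calls of these 5 were all lost without dcl1-9 dark 2.

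Most of those called in darkness only were lower in the mutant. GLYI4 (At1g15380), a glyoxalase family member, read 119, 99.7 and 269.6 in WT dark and 20.2, 17.4 and 30.9 in dcl1-9 dark, and 7.96, 7.52 and 5.75 in WT light and 8.45, 7.76 and 8.16 in dcl1-9 light (dark minus light -2.95, adjusted p = 0.018). HSFA7A (At3g51910), a heat stress factor, read 104, 76.0 and 84.9 and 23.1, 21.1 and 23.8 in darkness and 12.3, 18.0 and 16.4 and 10.8, 11.8 and 11.6 in light (dark minus light -1.52, adjusted p = 0.048). CKX5 (At1g75450), a cytokinin oxidase, read 107, 112 and 114 and 29.2, 31.8 and 37.3 in darkness and 9.27, 10.2 and 5.85 and 8.07, 7.49 and 8.13 in light (dark minus light -1.71, adjusted p = 0.043). In all 3, WT dark alone was high and the mutant in darkness lay between it and the light arrays. The opposite was seen for At5g21100, annotated as an ascorbate oxidase, which read 17.7, 17.6 and 12.7 in WT dark and 34.7, 43.6 and 34.4 in dcl1-9 dark but 194, 167 and 206 in WT light and 138, 135 and 153 in dcl1-9 light (dark minus light 1.65, adjusted p = 0.017). For the sulfur genes BGLU28 (At2g44460) and SDI1 (At5g48850) the larger difference was in light, and in darkness they read 16.9, 5.93 and 12.5 against 18.6, 19.3 and 15.2 and 18.0, 15.9 and 16.2 against 27.6, 32.7 and 16.4 (log2 0.83 and 0.68, neither called). Of the 14 sulfur deficiency genes 5 were called by this test.

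**Figure D5:**
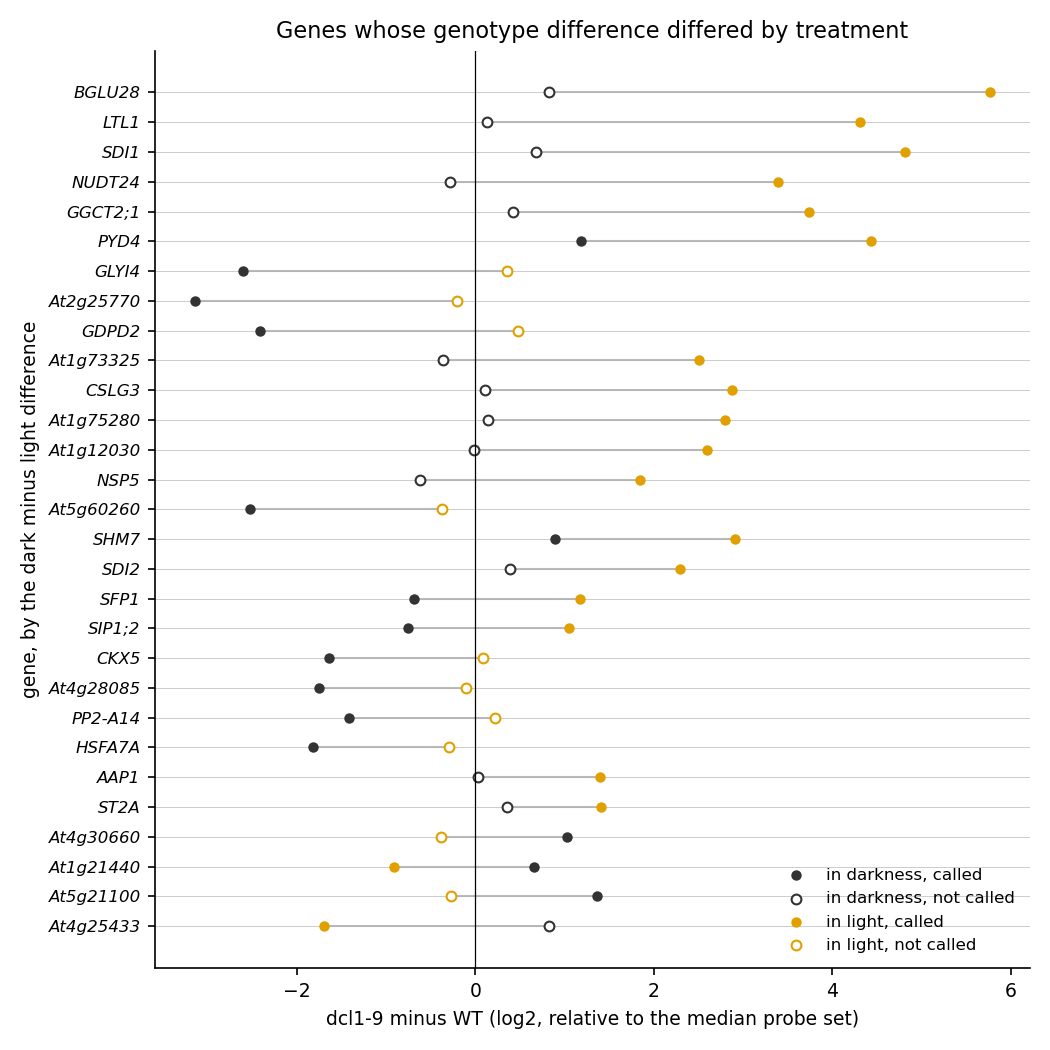
Log2 difference of dcl1-9 from WT, relative to the median probe set, in darkness (dark points) and in light (yellow points) for the 29 genes called by the test of the difference, filled where the genotype difference was called in that treatment. At the top, genes high in mutant leaves in light lie closer to 0 in darkness, and GLYI4, At2g25770 and GDPD2 show the reverse, lower in darkness and closer to 0 in light.

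Calls were spread along the chromosomes. The table gives no coordinates, so probe sets were put in the order of their locus numbers and cut into 276 windows of 100. Higher calls numbered 1 to 19 per window with a median of 8, and lower calls 0 to 7 with a median of 2. The window with the most calls, from At5g12470 to At5g13810, had 19 higher and 2 lower (21.0%, against 10.0% over all probe sets). The window that holds DCL1 had 10 higher and 3 lower. Stretches of Wassilewskija sequence that remained after the backcrosses were not mapped, and their part in the calls was not tested.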

How the data were processed

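Biotin-labelled cDNA from total RNA of 12 leaf samples had been hybridized to Affymetrix Arabidopsis Gene 1.1 ST array strips. The deposited values are linear intensities, which the authors computed in dChip by a perfect-match model, with invariant-set normalization to an array of median intensity and the probe grouping of Brainarray version 15 (1 probe set per gene). Quality control of the scans had used Affymetrix Expression Console, with no version given. The genome build is not given in the sources used here. A second deposited table repeats the intensities in 12 array columns, which were not used here, and holds group means, standard errors, the fold-change of dark over light with its 90% bounds and a filter mark. Of these only the group means and standard errors of the dark groups were used, for 1 alternative.

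Intensities under 1 were to be set to 1, and none was. Arrays were grouped by their labels, and their number limits the precision. With R 4.3.3 and limma 3.58.1 (statmod 1.5.0) a linear model of the 4 groups was fitted to log2 values of all 12 arrays, the median contrast over the 27827 probe sets was taken off, variances were moderated along the mean intensity, and two-sided p-values were adjusted by Benjamini-Hochberg over all probe sets, with calls at 0.05. Contrasts were dcl1-9 against WT in darkness, in light, and the difference of both. The fit was tested on simulated data. Tables and figures were made with Python 3.11.15, pandas 2.3.3 and matplotlib 3.10.9. Of the probe sets 18179 carry no gene name in the files and 10 names had turned into numbers or dates, so 27241 loci were named through RefSeq, by locus tag.

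The comparison, the 61 gene lists and 12 annotation rules were chosen with earlier results of these data known. Lists are described by counts and medians beside those of all probe sets. Named genes are DCL1, genes the study names from these arrays, the 15 largest rises and falls among calls with arrays that do not overlap, up to 4 called members per list, the listed small RNA genes and targets, and the 8 largest calls of the difference. Further MIR genes, FLC, the markers AP1, AP3, RBCS1A and CA1, the members listed by name alone and the other calls of the difference were named after their values were seen. Alternatives were no centring, median centring, quantile normalization, log2(intensity + 16), a filter at a mean intensity of 20, variances without trend, a test against 1.2-fold, the 90% bound, the 6 dark arrays alone, a replicate block and each array left out. Cyclic loess and the windows in locus order were chosen after the data were seen.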

Additional observations from a re-analysis of the deposited data

Results flagged for a closer look

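In 29 genes the limma test of the difference called a genotype difference that was not the same in darkness and in light. Values are the log2 difference of dcl1-9 from WT in darkness minus that in light, each with the median over all probe sets taken off. All 29 come from a test over 27827 probe sets at an adjusted p under 0.05.

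In 14 genes the genotype difference was called in light only. They are mostly genes that were higher in dcl1-9 leaves in light, while no difference was called in darkness, which does not show that they stood at the WT level there. Among them were BGLU28 at -4.93, LTL1 at -4.16, SDI1 at -4.12, NUDT24 at -3.66, GGCT2;1 at -3.31, At1g73325 at -2.86, CSLG3 at -2.76, At1g75280 at -2.64, At1g12030 at -2.61, NSP5 at -2.45, SDI2 at -1.90, AAP1 at -1.36 and ST2A at -1.04. The exception is At4g25433, a gene with a LysM domain, which was lower in dcl1-9 in light and stood at 2.54.

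In 10 genes it was called in darkness only. GLYI4 stood at -2.95, At2g25770 at -2.92, GDPD2 at -2.88, At5g60260 at -2.14, CKX5 at -1.71, At4g28085 at -1.64, PP2-A14 at -1.63 and HSFA7A at -1.52, all lower in dcl1-9 dark than in WT dark. At4g30660 at 1.43 and At5g21100 at 1.65 were higher in dcl1-9 dark.

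In 5 genes both differences were called. PYD4 at -3.23 and SHM7 at -2.0 were higher in dcl1-9 in both treatments, and more so in light. SFP1 at -1.85 and SIP1;2 at -1.79 were lower in darkness and higher in light, and At1g21440 at 1.58 was higher in darkness and lower in light. Without dcl1-9 dark 2 none of the 5 was called in darkness, with adjusted p from 0.055 to 0.14. Over the 6 dark arrays left out in turn the dark call held 0 times for SFP1, 1 time for SIP1;2, 2 times for PYD4, 3 times for SHM7 and 5 times for At1g21440.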

How the results depend on the processing

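The higher and lower calls in darkness (2249 and 536) became 1238 and 839 without centring, 585 and 155 in a test against 1.2-fold, and 1557 lower by the 90% bound on the fold, which is a criterion without adjustment over probe sets. Leaving out 1 dark array gave 472 to 2180 higher and 175 to 484 lower. Calls among the lists (285) were 114 against 1.2-fold and 98 to 293 with 1 array left out, and those in light (3194) were 1053 and 1394 to 3481. The 29 calls of the difference became 48 after quantile normalization, 66 with log2(intensity + 16), 15 without the variance trend, 19 against 1.2-fold and 8 to 39 with 1 of the 12 arrays left out. Replicate block apart, the other counts over all probe sets stayed within 1.5 times. For the 204 named genes called in darkness, 3256 values under alternatives gave 2590 on the same side of the threshold and 666 that lost the call, with 0 changes of direction, and 96 genes kept the call throughout. The cause was not tested.

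The labels do not say that a replicate number marks a shared batch, and the arrays were not taken as paired. Over probe sets, deviations of same-numbered arrays from their group means correlated at 0.05, 0.20 and 0.34 in darkness and 0.07, 0.16 and 0.31 in light, all positive. Arrays of different number correlated at -0.25 to 0.06 in darkness and -0.32 to 0.12 in light, mostly below 0. WT dark 1 correlated slightly better with dcl1-9 dark 2 (0.06) than with its own number (0.05), so not every array went best with its own. With the replicate number as a block, 3627 probe sets were higher and 971 lower, 453 calls lay among the lists, 4999 in light and 77 for the difference. Arrays were left out in turn without this block.

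Windows of megabases were not run, for lack of coordinates, and windows of 50 probe sets gave a highest share of calls of 28.0%, against 21.0% for 100. Of the probe sets 9686 had a mean intensity under 20, where differences are least certain.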
